A study of Mus musculus with 17 samples.

Results

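Transcripts of 10 genes that encode receptors for microbial products were followed across 6 groups of mouse colon preparations: the Toll-like receptors Tlr1, Tlr2, Tlr3, Tlr4, Tlr5, Tlr9 and Tlr13, the co-receptor Cd14, and the cytosolic receptors Nod1 and Nod2. They are the rows of the deposited count tables whose NCBI gene numbers carry these symbols, 10 of 27179 genes. All 10 were found, and no other RefSeq gene overlaps any of them. RNA came from the colon of C57BL/6(h-2b) mice aged 8 weeks, in preparations that the labels name colon macrophages, with 1 mouse number per library. The mutant mice lacked MCJ, a mitochondrial protein encoded by Dnajc15 that restrains respiratory complex I, and were set against wild type. The labels name neither the allele nor the cells in which MCJ is missing. The colon was disrupted with collagenase type IV between washes, and no cell sorting is named.

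The 17 libraries fall into 3 conditions. PP mice received a broad-spectrum antibiotic for 7 days and then DSS for 6 days (3 MCJ-deficient and 3 wild-type libraries). DSS is dextran sulfate sodium, a polymer given in drinking water that injures the colon epithelium. NP mice received DSS for 6 days without antibiotic (3 and 3), and for NN mice no treatment is named (2 and 3). The comparisons ask what loss of MCJ, DSS and antibiotic before DSS each did to the transcripts.

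Pattern recognition receptors bind structures that microbes share. Toll-like receptors at the cell surface bind bacterial lipids, lipopeptides and flagellin, those in endosomes bind nucleic acids, and NOD1 and NOD2 bind fragments of peptidoglycan in the cytosol. Most of them signal through an adaptor such as MyD88, or the kinase RIPK2 for the NOD proteins, to NF-kB and the transcription of cytokines. In the colon the receptors are found on macrophages and neutrophils and, for several of them, on epithelial cells.

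Promoter windows of 300 bases (250 before and 50 after the transcription start) are shown for genes of the main pattern other than Cd14 and for 1 gene that did not take part in it. The sequences are RefSeq's on GRCm38.p6. Windows of 8 of the 10 genes were used, and none was used for Cd14 or Tlr4. Tlr2 and Tlr13 passed the test in PP over NP in both genotypes, Nod2 passed in PP over NN in both, and Tlr3 passed in none. Capitals mark matches to the motifs searched on both strands: the NF-kB motif, the PU.1 core GAGGAA, the AP-1 motif TGANTCA, the interferon response element GAAANNGAAA and the C/EBP motif TTNNGCAA. PU.1 and C/EBP are transcription factors of myeloid cells.
Tlr2, chr3:83841559-83841858, minus strand: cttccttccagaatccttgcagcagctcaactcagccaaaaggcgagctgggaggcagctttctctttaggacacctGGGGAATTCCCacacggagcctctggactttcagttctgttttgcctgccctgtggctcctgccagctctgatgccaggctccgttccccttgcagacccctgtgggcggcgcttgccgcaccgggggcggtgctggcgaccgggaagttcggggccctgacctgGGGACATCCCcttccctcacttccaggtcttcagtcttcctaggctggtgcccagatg
Tlr13, chrX:106143025-106143324, plus strand: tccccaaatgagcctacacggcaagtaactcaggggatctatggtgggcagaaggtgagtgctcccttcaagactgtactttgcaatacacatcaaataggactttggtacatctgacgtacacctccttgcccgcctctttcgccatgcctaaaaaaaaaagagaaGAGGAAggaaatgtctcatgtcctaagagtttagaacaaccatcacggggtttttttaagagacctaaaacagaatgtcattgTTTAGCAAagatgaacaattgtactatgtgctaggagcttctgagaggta
Nod2, chr8:88647097-88647396, plus strand: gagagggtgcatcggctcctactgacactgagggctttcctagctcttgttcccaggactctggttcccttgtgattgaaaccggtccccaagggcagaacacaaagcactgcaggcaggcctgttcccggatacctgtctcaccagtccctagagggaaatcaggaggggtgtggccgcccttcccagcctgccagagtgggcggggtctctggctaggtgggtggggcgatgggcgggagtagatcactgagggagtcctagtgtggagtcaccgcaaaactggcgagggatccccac
Tlr3, chr8:45410331-45410630, minus strand: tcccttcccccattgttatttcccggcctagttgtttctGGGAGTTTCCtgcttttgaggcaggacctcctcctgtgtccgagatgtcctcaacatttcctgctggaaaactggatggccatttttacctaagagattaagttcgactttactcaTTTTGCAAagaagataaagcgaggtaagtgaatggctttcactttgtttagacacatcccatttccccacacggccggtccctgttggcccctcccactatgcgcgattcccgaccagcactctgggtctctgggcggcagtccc

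In the Tlr2 window the capitals mark 3 NF-kB matches. A pair of them overlaps, spanning bases -173 to -163, and the other spans -8 to 1, with the start base counted as 0. The Tlr13 window holds a PU.1 core at -83 and a C/EBP match at 0. The Tlr3 window holds an NF-kB match at -211 and a C/EBP match at -95, and the Nod2 window none of the motifs. Among windows not shown, a Tlr1 window holds a PU.1 core at -23 and a Nod1 window a C/EBP match at 5. The Tlr9 window holds PU.1 cores at -112 and 12 and an AP-1 match at -58, and the Tlr5 window none. Of all 27025 mouse promoter windows of this length, 8.18% hold the NF-kB motif, 28.3% the PU.1 core, 7.93% the AP-1 motif, 3.49% the interferon response element and 10.8% the C/EBP motif. A match is a description of letters and not a binding site.

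Depth was 29194744 to 37083344 counts per library. Dnajc15 had 21 to 121 counts in MCJ-deficient and 359 to 1534 in wild-type libraries, and it was lower in every MCJ-deficient library in each condition. Transcripts of colonocytes outweighed those of macrophages in every library: 10 colonocyte markers summed to 7280.2 to 20762 CPM (counts scaled to a common library size after TMM) and 13 macrophage markers to 9.94 to 3573 CPM. The gap was smallest in wild-type PP replicate 12, with 7678 CPM of colonocyte and 3573 CPM of macrophage markers. Among macrophage markers Cd163 had no count in MCJ-deficient NN, and Cd163 and Aif1 had none in wild-type NN. Wild-type PP replicate 11 stood apart from its group with a macrophage sum of 439 CPM, and wild-type NN replicate 2 and MCJ-deficient PP replicate 24 covered the fewest genes of their groups. The libraries also differed in transcripts of the sex chromosomes, while the labels used here give no sex. Both MCJ-deficient NN libraries and wild-type NN replicates 1 and 2 held 1100 to 7950 counts of Xist, which female cells transcribe, and at most 1 count of the Y-linked Ddx3y. Wild-type NN replicate 3 and all NP and PP libraries held 241 to 2691 Ddx3y counts and at most 9 Xist counts, except MCJ-deficient NP replicate 21, with 3822 Xist and 518 Ddx3y counts. Treatment and this split cannot be told apart in MCJ-deficient mice when PP or NP is set against NN, and Tlr13 itself lies on the X chromosome.

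Some receptor transcripts were low in NN and high in PP, some were level throughout, and the rest lay between. Cd14, Tlr2, Tlr13 and Nod2 were higher in every PP library than in every NN library in both genotypes, while Tlr1 and Tlr3 overlapped between groups in each comparison. Of the genes with a count, 19.2% in MCJ-deficient and 19.3% in wild-type mice were higher in every PP than in every NN library, each genotype taken alone. Of the 10 genes, 9 had their highest group mean in a PP group, the exception being Tlr1. The count includes Tlr3, whose libraries in its highest group, MCJ-deficient PP, overlapped those of the next, wild-type NP. The wild-type PP mean of Tlr3 lay below its NP mean in either genotype. The share of all genes with their highest mean in a PP group was not computed. In bulk RNA, fewer cells of a type and less RNA per cell cannot be told apart.

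**Figure D1:**
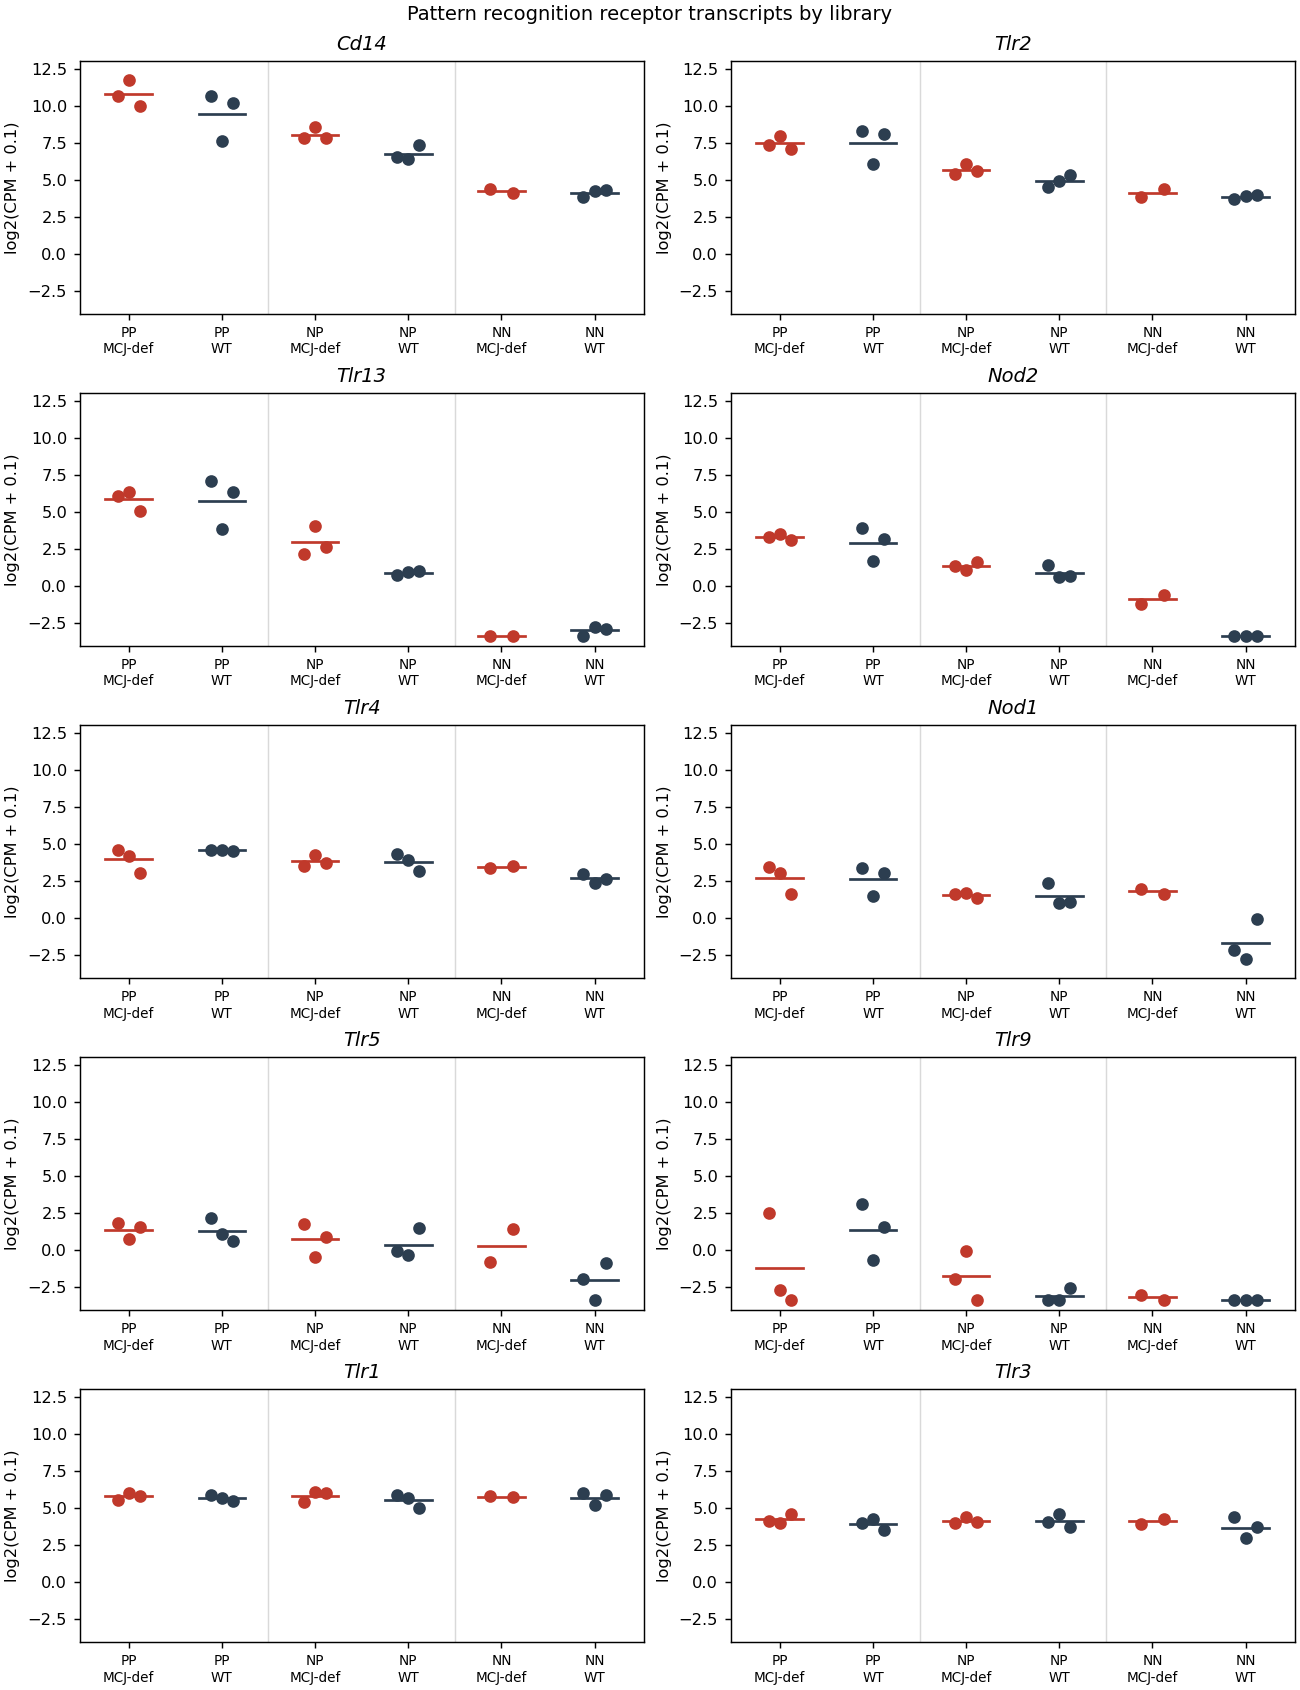
Level of each receptor transcript on a log2(CPM + 0.1) scale in each library (points), with the group mean on that scale (lines), for PP, NP and NN, MCJ-deficient (red) beside wild type (dark). Cd14, Tlr2, Tlr13 and Nod2 step down between PP, NP and NN, and Tlr1 and Tlr3 stay level.

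Cd14 encodes a membrane protein that binds lipopolysaccharide and hands it to the TLR4 complex. Its gene (NCBI gene 12475) lies on chromosome 18 at 36725064 to 36726815 (GRCm38). It had 1591, 3361 and 1011 CPM in MCJ-deficient PP and 1569.7, 195 and 1162 CPM in wild-type PP. In NP it had 226, 370.1 and 222 CPM in MCJ-deficient and 93.5, 86.4 and 163 CPM in wild-type libraries. In NN it had 20.4 and 17.7 CPM in MCJ-deficient and 14.5, 19.1 and 19.96 CPM in wild-type libraries. Thus the conditions were separated within each genotype, and the genotypes were separated in NP and overlapped in PP and NN.

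With antibiotic before DSS, Cd14 was higher than with DSS alone by a log2 fold change of 2.86 (SE 0.57; adjusted p = 0.0242) in MCJ-deficient mice, where adjusted p-values are Benjamini-Hochberg values over all genes from the quasi-likelihood test of edgeR. In wild-type mice the same contrast gave 3.10 (SE 0.57; adjusted p = 0.0048, edgeR). DSS alone over NN gave 3.84 (SE 0.71; adjusted p = 0.00489, edgeR) in MCJ-deficient and 2.67 (SE 0.57; adjusted p = 0.0165, edgeR) in wild-type mice. Antibiotic and DSS over NN gave 6.71 (SE 0.82; adjusted p = 6.21e-05, edgeR) in MCJ-deficient and 5.77 (SE 0.65; adjusted p = 1.59e-05, edgeR) in wild-type mice. Cd14 passed in all 6 treatment contrasts.

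Tlr2 encodes the surface receptor that pairs with TLR1 or TLR6 to bind bacterial lipopeptides (gene 24088, chromosome 3, 83836272 to 83841824). It had 160.2, 247 and 138 CPM in MCJ-deficient PP and 309, 67.7 and 269 CPM in wild-type PP. In NP it had 41.3, 67.7 and 47.8 CPM in MCJ-deficient and 22.6, 29.7 and 39.5 CPM in wild-type libraries. In NN it had 14.2 and 20.9 CPM in MCJ-deficient and 12.96, 14.7 and 16.1 CPM in wild-type libraries. The conditions did not overlap within a genotype, and wild-type PP replicate 11 was the lowest PP library.

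Tlr2 rose in PP over NP by 1.8 on the log2 scale (SE 0.42; adjusted p = 0.0441, edgeR) in MCJ-deficient mice and by 2.82 (SE 0.44; adjusted p = 0.00202, edgeR) in wild-type mice. It rose in PP over NN by 3.37 (SE 0.53; adjusted p = 0.000491, edgeR) in MCJ-deficient and by 3.88 (SE 0.46; adjusted p = 2.21e-05, edgeR) in wild-type mice. The step for DSS alone over NN did not pass in the fit of the 17 libraries. The log2 fold change was 1.57 (SE 0.49; adjusted p = 0.151, edgeR) in MCJ-deficient and 1.06 (SE 0.42; adjusted p = 0.223, edgeR) in wild-type mice. The MCJ-deficient step passed by DESeq2 (adjusted p = 0.0156) and in a fit of those groups alone (adjusted p = 0.00585, edgeR).

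Tlr1 encodes a partner of TLR2 (gene 21897, chromosome 5, 64924680 to 64933600). It did not follow Tlr2. It ranged from 47.2 to 65.1 CPM in MCJ-deficient PP, 44.3 to 59.0 in wild-type PP, 42.1 to 68.1 in MCJ-deficient NP, 31.8 to 57.5 in wild-type NP, 52.5 to 55.3 in MCJ-deficient NN and 36.5 to 64.0 in wild-type NN. All groups that neighbour each other in the order of its means overlapped, and it passed in no comparison by edgeR.

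Tlr4, the receptor for lipopolysaccharide that CD14 serves (gene 21898, chromosome 4, 66827551 to 66846581), varied over a narrower range than Cd14. It had 23.9, 18.6 and 8.27 CPM in MCJ-deficient PP and 24.2, 23.9 and 22.99 CPM in wild-type PP. In NP it had 11.6, 19.2 and 12.9 CPM in MCJ-deficient and 19.8, 15.3 and 9.10 CPM in wild-type libraries. In NN it had 10.4 and 11.4 CPM in MCJ-deficient and 7.91, 5.19 and 6.11 CPM in wild-type libraries. The wild-type PP libraries lay close together and above all other wild-type libraries, while MCJ-deficient PP replicate 24 was below both MCJ-deficient NN libraries. In wild-type mice Tlr4 rose in PP over NN by 1.88 on the log2 scale (SE 0.40; adjusted p = 0.00285, edgeR). The other comparisons of Tlr4 did not pass, among them NP over NN in wild-type mice at 1.19 (SE 0.39; adjusted p = 0.133, edgeR) and PP over NP in wild-type mice at 0.69 (SE 0.38; adjusted p = 0.394, edgeR).

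Tlr5 encodes the flagellin receptor (gene 53791, chromosome 1, 182954752 to 182976044) and was scarce. It had 3.54, 1.57 and 2.86 CPM in MCJ-deficient PP and 4.37, 2.09 and 1.42 CPM in wild-type PP. In NP it had 3.27, 0.638 and 1.76 CPM in MCJ-deficient and 0.871, 0.712 and 2.74 CPM in wild-type libraries. In NN it had 0.473 and 2.55 CPM in MCJ-deficient libraries, and 4, 0 and 12 counts in the wild-type ones. Only the wild-type NN libraries lay below the rest. PP over NN passed in wild-type mice at 3.62 (SE 1.21; adjusted p = 0.0439, edgeR), and NP over NN there was 2.75 (SE 1.18; adjusted p = 0.259, edgeR).

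Among the endosomal receptors, Tlr13 had the widest range. In mice it encodes a receptor for bacterial ribosomal RNA (gene 279572, chromosome X, 106143275 to 106160493). It had 68.2, 82.1 and 33.8 CPM in MCJ-deficient PP and 137, 14.4 and 80.9 CPM in wild-type PP. In NP it had 4.43, 16.5 and 6.15 CPM in MCJ-deficient and 1.58, 1.82 and 1.94 CPM in wild-type libraries. In NN the counts were 0 and 0 in MCJ-deficient and 0, 1 and 1 in wild-type libraries, so the transcript was barely detectable there. The conditions did not overlap in either genotype.

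PP over NP gave a log2 fold change for Tlr13 of 2.76 (SE 0.64; adjusted p = 0.0441, edgeR) in MCJ-deficient mice and 5.44 (SE 0.73; adjusted p = 0.00122, edgeR) in wild-type mice. Against a floor of 3 counts over the MCJ-deficient NN group, it was at least 218-fold higher in MCJ-deficient NP (adjusted p = 0.000931, edgeR) and at least 1618-fold higher in MCJ-deficient PP. Against the 2 counts of wild-type NN, the pooled ratio was 64.3 in wild-type NP (exact 95% counting interval 17.6 to 534) and 2665 in wild-type PP (737 to 22008). Both wild-type contrasts passed by edgeR.

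Tlr9, which binds unmethylated CpG DNA (gene 81897, chromosome 9, 106222598 to 106226876), was uneven among replicates. Its counts were 228, 2 and 0 in MCJ-deficient PP and 255, 19 and 93 in wild-type PP. They were 8, 30 and 0 in MCJ-deficient NP and 0, 0 and 3 in wild-type NP. In NN there was 1 count in the 2 MCJ-deficient libraries together and none in the wild-type ones. Most of the MCJ-deficient PP counts came from replicate 22. In the main edgeR fits Tlr9 passed in 1 comparison, PP over NN in wild-type mice. There it was at least 89.3-fold higher against the floor of 3 counts over the group (adjusted p = 0.0329, edgeR). In wild-type mice PP over NP had a pooled ratio of 141 (47.9 to 687) that did not pass (adjusted p = 0.141, edgeR). That contrast passed by DESeq2 (adjusted p = 0.0121) and in a fit of those groups alone (adjusted p = 0.0344, edgeR). PP over NN in MCJ-deficient mice passed by DESeq2 (adjusted p = 0.0391). Its log2 fold change by edgeR ranged from 0.86 to 9.00 with a library left out.

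Tlr3, the receptor for double-stranded RNA (gene 142980, chromosome 8, 45395665 to 45411075), was level. It ranged from 15.5 to 24.2 CPM in MCJ-deficient PP, 11.1 to 19.4 in wild-type PP, 15.5 to 20.5 in MCJ-deficient NP, 12.9 to 24.04 in wild-type NP, 15.2 to 19.4 in MCJ-deficient NN and 7.66 to 20.8 in wild-type NN. It passed in no comparison by edgeR, and its groups overlapped throughout.

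The cytosolic receptors were scarce. Nod2, which binds muramyl dipeptide (gene 257632, chromosome 8, 88647315 to 88688474), had 9.92, 11.2 and 8.68 CPM in MCJ-deficient PP and 14.8, 3.22 and 8.79 CPM in wild-type PP. It had 2.46, 2.03 and 3.00 CPM in MCJ-deficient NP and 2.55, 1.45 and 1.51 CPM in wild-type NP. In NN it had 13 and 22 counts in the MCJ-deficient libraries and none in the 3 wild-type ones. Here again PP, NP and NN were separated within each genotype.

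In wild-type mice Nod2 was at least 42.2-fold higher in NP than in NN, against the floor of 3 counts over the group (adjusted p = 0.00087, edgeR), and at least 206-fold higher in PP than in NN. In MCJ-deficient mice PP over NN was 4.44 on the log2 scale (SE 0.84; adjusted p = 0.00302, edgeR), while NP over NN, at 2.45 (SE 0.76; adjusted p = 0.171, edgeR), did not pass. PP over NP did not pass in either genotype, at 1.99 (SE 0.63; adjusted p = 0.127, edgeR) in MCJ-deficient and 2.28 (SE 0.64; adjusted p = 0.0554, edgeR) in wild-type mice. The wild-type value passed without replicate 11 of PP, at 2.68 (adjusted p = 0.0157, edgeR), with RLE scaling (adjusted p = 0.049, edgeR) and by DESeq2 (adjusted p = 0.00229). The MCJ-deficient value passed by DESeq2 (adjusted p = 0.0172) and in a fit of those groups alone (adjusted p = 0.0179, edgeR). In NP over NN of MCJ-deficient mice, Nod2 passed by DESeq2 (adjusted p = 0.00936).

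Nod1, which binds peptidoglycan fragments that carry diaminopimelic acid (gene 107607, chromosome 6, 54923942 to 54972674), had 10.8, 8.21 and 3.05 CPM in MCJ-deficient PP and 10.5, 2.72 and 7.98 CPM in wild-type PP. It had 3.04, 3.13 and 2.45 CPM in MCJ-deficient NP and 5.00, 1.98 and 1.99 CPM in wild-type NP. In NN it had 3.81 and 3.06 CPM in MCJ-deficient libraries and 0.122, 0.0485 and 0.878 CPM in wild-type ones, which were the lowest of all. It rose in PP over NN in wild-type mice by 4.30 on the log2 scale (SE 0.93; adjusted p = 0.00341, edgeR), a call that was lost in a fit of those groups alone (4.26, adjusted p = 0.072, edgeR). NP over NN in wild-type mice was 3.05 (SE 0.89; adjusted p = 0.0833, edgeR). This step passed by DESeq2 (adjusted p = 0.00525) and without NN replicate 3, at 5.06 (adjusted p = 0.00769, edgeR).

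Counted over the 10 receptors, all of which entered the fit of the 17 libraries, PP over NP called 3 higher in MCJ-deficient mice, where 1.34% of all genes were called higher, and 3 in wild-type mice, against 3.49% of all genes. The genes were Cd14, Tlr2 and Tlr13 in each genotype. NP over NN called 2 higher in MCJ-deficient mice (Cd14 and Tlr13; all genes 2.04%) and 3 in wild-type mice (Cd14, Tlr13 and Nod2; all genes 2.25%). PP over NN called 4 higher in MCJ-deficient mice (Cd14, Tlr2, Tlr13 and Nod2; all genes 6.52%) and 8 in wild-type mice (all but Tlr1 and Tlr3; all genes 12.8%). None was called lower in any of these comparisons, where the share of all genes called lower was 0.389% and 0.926% for PP over NP in MCJ-deficient and wild-type mice, 0.0354% and 0.195% for NP over NN, and 3.77% and 7.31% for PP over NN. The median log2 fold change in PP over NN was 2.23 over the receptors and 0.06 over all genes in MCJ-deficient mice, and 4.09 and 0.27 in wild-type mice. Comparisons of 1 genotype share libraries with each other.

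Some of these calls were lost when 1 library was left out. The 3 calls of PP over NP in MCJ-deficient mice were all lost without NP replicate 19, 20 or 21, or without PP replicate 23. Adjusted p was then 0.0621 to 0.229 (edgeR), and only Cd14 remained called without PP replicate 22. Over all genes, 228 were called higher in that contrast, but 9, 12 and 6 without NP replicates 19, 20 and 21. Without PP replicates 22 and 23 it was 74 and 56. With a library left out, log2 fold changes were 2.25 to 3.18 for Cd14, 1.51 to 2.03 for Tlr2 and 2.39 to 3.54 for Tlr13. In NP over NN, Cd14 was lost in MCJ-deficient mice without NN replicate 13 (adjusted p = 0.103, edgeR) or 14 (adjusted p = 0.108, edgeR). In wild-type mice it was lost without NN replicate 1 or 2 or NP replicate 9, at adjusted p of 0.0545 to 0.0651 (edgeR), and a fit of the wild-type NP and NN libraries alone lost Tlr13 (adjusted p = 0.233, edgeR) and Nod2 (adjusted p = 0.202, edgeR). In PP over NN, Nod2 was lost in MCJ-deficient mice without NN replicate 13 (adjusted p = 0.0811, edgeR). In wild-type mice Tlr5 was lost without any 1 library but NN replicate 3, and Tlr9 without any 1 library but PP replicate 11, at adjusted p of 0.0522 to 0.141 (edgeR). Tlr5 was also lost in a fit of those groups alone (adjusted p = 0.206, edgeR) and without the filter on low counts (adjusted p = 0.052, edgeR). With the libraries of under 10 Xist counts alone, which leaves 1 wild-type NN library whose spread is assumed equal to that of the other groups, PP over NN in wild-type mice called 4 receptors, Cd14, Tlr2, Tlr13 and Nod2. NP over NN then called none, and 3 genes in all, with Cd14 at 2.52 (adjusted p = 0.448, edgeR) and Nod2 at adjusted p = 0.0951 (edgeR).

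Relative to exon length, Cd14 stood first in PP and NP. Its mean was 1148 CPM per kb in MCJ-deficient PP, 563 in wild-type PP, 157 in MCJ-deficient NP and 65.9 in wild-type NP, and its libraries did not overlap those of the next receptor. In NN the first was Tlr1, with 16.1 CPM per kb in MCJ-deficient and 16.0 in wild-type libraries, followed by Cd14 with 11.0 and 10.3, Tlr2 with 5.83 and 4.84, and Tlr3 with 3.31 and 2.66. The libraries of Tlr1 and Cd14 overlapped in wild-type NN and not in MCJ-deficient NN. Tlr13 reached 14.3 CPM per kb in MCJ-deficient PP and 17.97 in wild-type PP, a level that overlapped Tlr1 in both. Nod1, Nod2, Tlr5 and Tlr9 stood at or below 1.98 CPM per kb in each group.

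**Figure D2:**
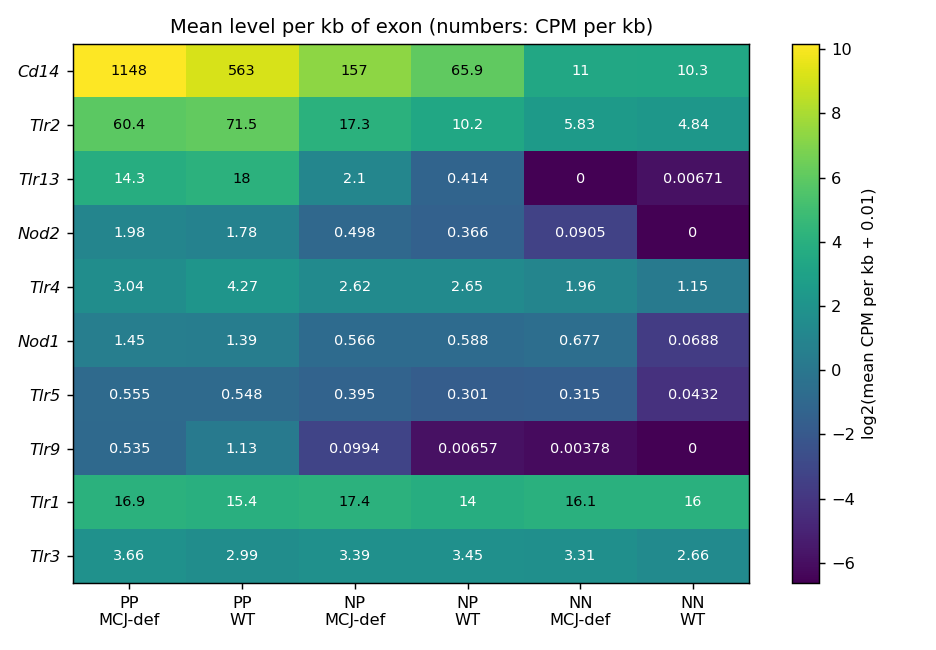
Mean level of each receptor per kb of exon (numbers, CPM per kb; colours, log2 of the value plus 0.01) in the 6 groups, MCJ-deficient left of wild type within PP, NP and NN. Cd14 is first in PP and NP, at 1148 CPM per kb in MCJ-deficient PP, and Tlr1 is first in NN.

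Loss of MCJ was tested within each condition. Cd14, Tlr2 and Tlr13 were higher in every MCJ-deficient NP library than in every wild-type NP library, which is 3 of 10 receptors beside 8% of the genes with a count. None of the 9 receptors tested passed by edgeR (Tlr9 fell below the filter), where 0.983% of all genes were called higher and 0.0208% lower. The log2 fold changes, MCJ-deficient over wild type, were 2.34 for Tlr13 (SE 0.51; adjusted p = 0.0587, edgeR), 1.26 for Cd14 (SE 0.30; adjusted p = 0.0873, edgeR) and 0.77 for Tlr2 (SE 0.28; adjusted p = 0.372, edgeR). These 3 had an unadjusted p under 0.05. DESeq2 called Tlr13 (adjusted p = 0.000774) and Cd14 (adjusted p = 0.00342), edgeR without a filter on low counts called the same 2, and edgeR called Tlr13 without MCJ-deficient replicate 19 (adjusted p = 0.0111) and Cd14 without wild-type replicate 9 (adjusted p = 0.021). Without MCJ-deficient replicate 20, the highest of its group in all 3 genes, Tlr13 was 1.57 (adjusted p = 0.512, edgeR) and Cd14 0.97 (adjusted p = 0.464, edgeR). With a library left out, the adjusted p by edgeR ranged from 0.0111 to 0.512 for Tlr13 and from 0.021 to 0.464 for Cd14, and in the fit of all 17 libraries it was 0.366 and 1. Without replicate 21, which held both Xist and Ddx3y, Tlr13 was 2.55 (adjusted p = 0.0834, edgeR) and Cd14 1.38 (adjusted p = 0.144, edgeR). Over the receptors tested the median log2 fold change was 0.07 in PP, 0.39 in NP and 0.49 in NN, beside 0.01, 0.03 and 0.08 over all genes.

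**Figure D3:**
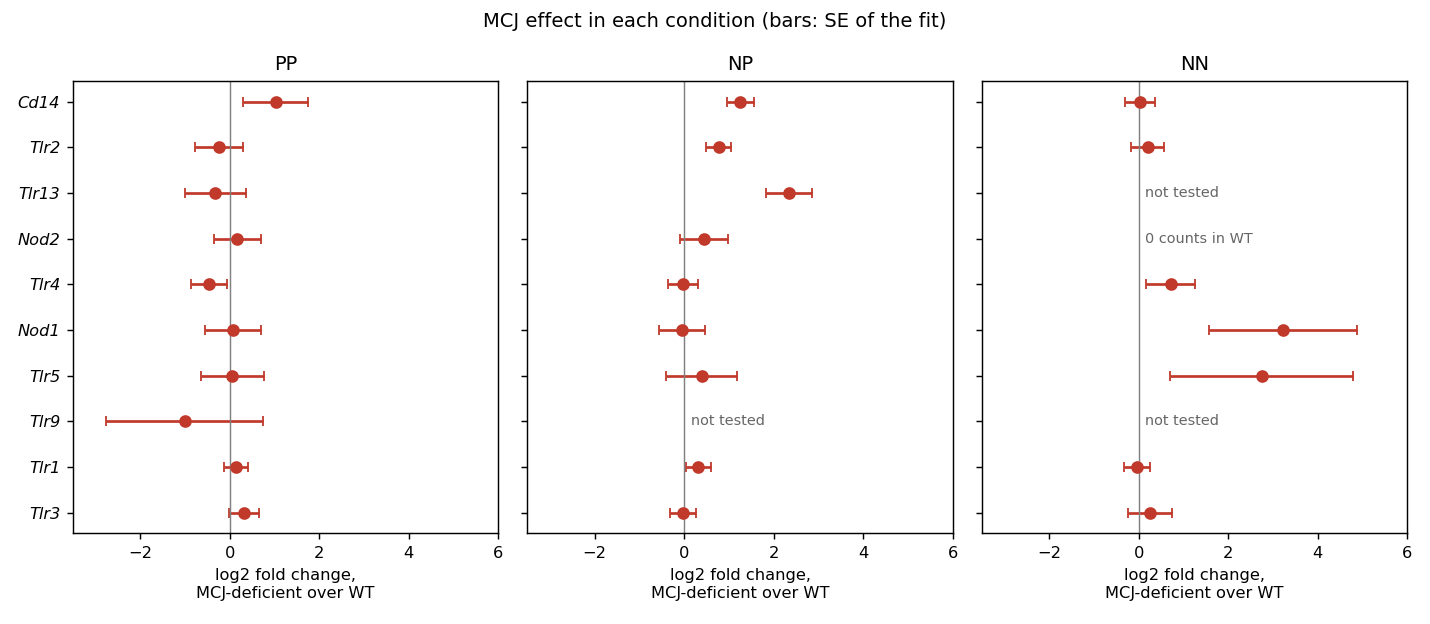
Log2 fold change of each receptor, MCJ-deficient over wild type (points), with the SE of the fit (bars), in PP, NP and NN. Receptors below the filter are marked as not tested, and Nod2 in NN is given as text since wild type had no count. Tlr13 and Cd14 lie above 0 in NP, at 2.34 and 1.26, and no receptor passed the test.

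In PP the genotypes overlapped for all 10 receptors, beside 4.51% of genes with a count that were higher in every MCJ-deficient library. None passed by edgeR or by DESeq2, none had an unadjusted p under 0.05, and 0% of all genes were called by edgeR. Cd14 averaged 1988 ± 1224 CPM in MCJ-deficient and 976 ± 706 CPM in wild-type PP (SD, n = 3 each), a difference within the spread. The same condition did not call Dnajc15 (log2 fold change -4.15, SE 0.76; adjusted p = 0.791, edgeR), so a change of that size did not pass there. In NN, 4 of 10 receptors were higher in every MCJ-deficient library (Tlr4, Tlr5, Nod1 and Nod2), beside 19.7% of the genes with a count. The NN genotypes were also apart in the mitochondrial share of counts, 23.1% to 28.4% in MCJ-deficient and 38.9% to 50.4% in wild-type libraries, and in genes with at least 10 counts, 13567 to 13571 in MCJ-deficient and 10075 to 13000 in wild-type libraries. Their part in the receptor values was not tested. None of the 8 tested passed by edgeR or by DESeq2, and edgeR called 0% of all genes. Nod2 was at least 10.8-fold higher in MCJ-deficient NN against the floor of 3 counts over the group (adjusted p = 0.572, edgeR) and was the 1 receptor with an unadjusted p under 0.05. Nod1 had a log2 fold change of 3.21 (SE 1.65; adjusted p = 0.702, edgeR), and without wild-type replicate 3 it was 5.21 (adjusted p = 0.256, edgeR).

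The MCJ effect was compared between conditions in the fit of all libraries. No receptor passed by edgeR in either difference, and 0% of all genes did. In NP minus NN, Nod2 (-6.53, SE 1.43; adjusted p = 0.283, edgeR) and Nod1 (-3.31, SE 1.22; adjusted p = 0.778, edgeR) were the 2 receptors with an unadjusted p under 0.05, and DESeq2 called Nod2 (adjusted p = 0.0468). The value of Nod2 depends on the prior count, since wild-type NN had no count. In PP minus NP, Tlr13 was the 1 receptor with an unadjusted p under 0.05 (-2.67, SE 0.87; adjusted p = 0.664, edgeR), and DESeq2 called none. The wider genotype gap of Tlr13 in NP was thus not shown to differ from that in the other conditions. For Cd14 the pooled ratio of MCJ-deficient to wild type was 2.27 in NP, 2.14 in PP and 1.07 in NN.

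Markers of macrophages moved with these receptors. The 13 markers summed to 1604, 1993 and 1847 CPM in MCJ-deficient PP and 3378, 439 and 3573 in wild-type PP, to 298, 1174 and 605 in MCJ-deficient NP and 105, 63.9 and 76.6 in wild-type NP, and to 26.8 and 23.8 in MCJ-deficient NN and 16.4, 9.94 and 26.4 in wild-type NN. In NP all 13 had a positive MCJ effect and 8 were called higher, as were 3 of 5 monocyte markers. Neutrophil markers, 10 genes, summed to 1178 to 5360.2 CPM in MCJ-deficient PP, 288 to 1408 in wild-type PP, 260.0 to 549 in MCJ-deficient NP, 399 to 678 in wild-type NP, 25.3 to 30.8 in MCJ-deficient NN and 25.5 to 65.2 in wild-type NN, and in NP no neutrophil marker was called for MCJ. Dendritic cell markers, 7 genes, moved the same way. They summed to 48.7 to 53.6 CPM in MCJ-deficient PP and 11.6 to 154 in wild-type PP. In NP it was 9.09 to 19.1 in MCJ-deficient and 1.29 to 3.27 in wild-type libraries, and in NN at most 0.721. Endothelial markers, 5 genes, were also higher in every PP than in every NN library within each genotype. Wild-type PP replicate 11 was the lowest PP library in Cd14, Tlr2, Tlr13 and Nod2 and in the macrophage and neutrophil marker sums. In PP over NN all 5 monocyte markers were called higher in each genotype, and 5 of 10 colonocyte markers were called lower in each. The colonocyte markers summed to 7280.2 to 9644 CPM in MCJ-deficient PP, 7678 to 11871 in wild-type PP, 12439 to 17362 in MCJ-deficient NP, 11607 to 15542 in wild-type NP, 15760.4 to 20762 in MCJ-deficient NN and 19431 to 20649 in wild-type NN. The part of these cells in the receptor values was not tested.

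**Figure D4:**
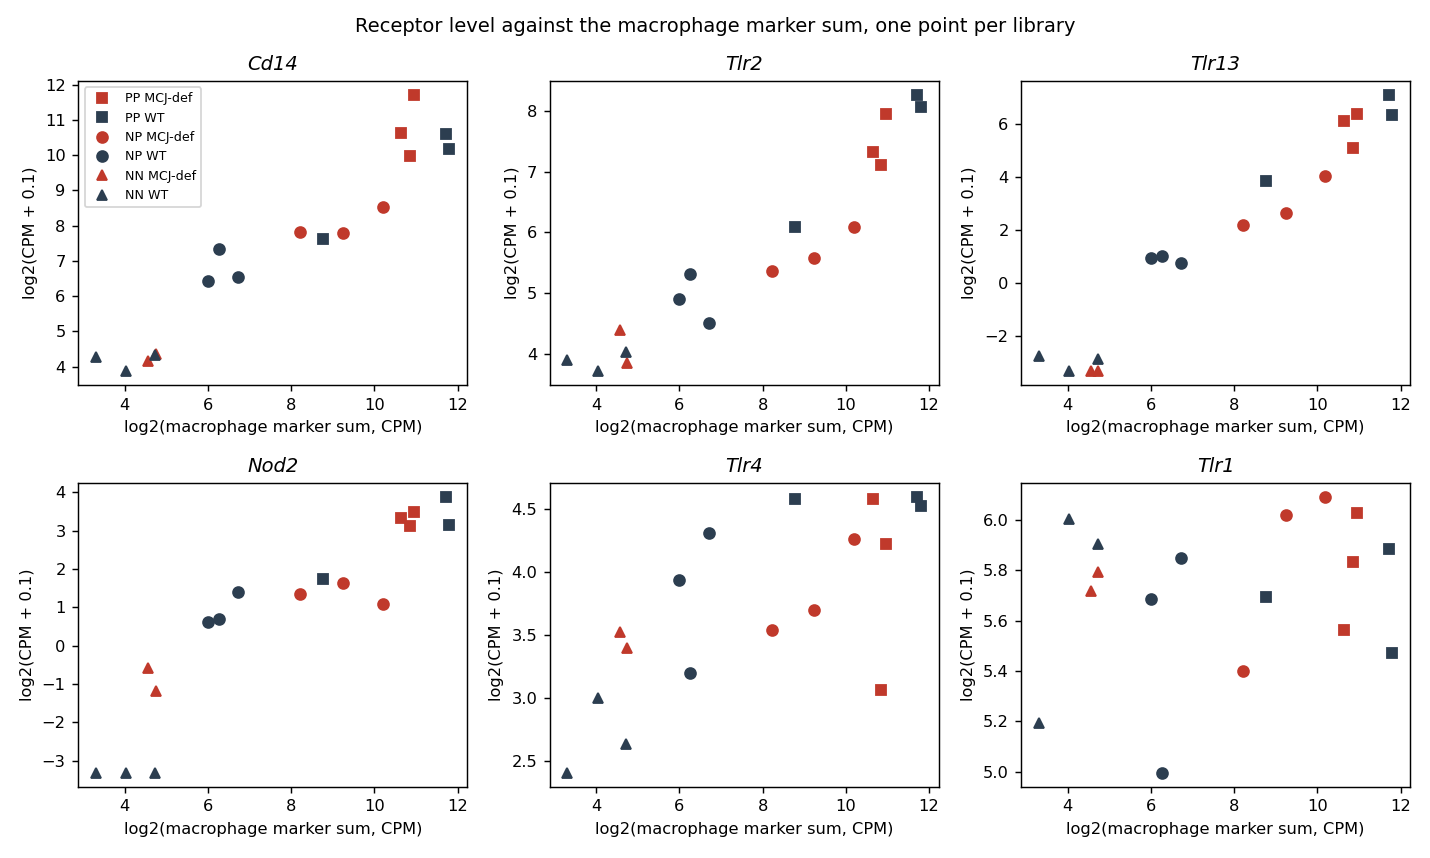
Level of 6 receptors (log2(CPM + 0.1)) against the sum of 13 macrophage markers (log2 CPM), 1 point per library; squares are PP, circles NP and triangles NN, red MCJ-deficient and dark wild type. Cd14, Tlr2, Tlr13 and Nod2 are higher in libraries with more marker transcript, and Tlr1 has no such trend.

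Set against the macrophage markers of the same library, the order of the genotypes in NP turned round for Cd14, Tlr2 and Tlr13. Per 1000 counts of these markers, Cd14 had 759, 315 and 367 counts in MCJ-deficient NP and 891, 1351 and 2123 in wild-type NP. Tlr2 had 139, 57.7 and 79.0 in MCJ-deficient and 215, 464 and 516 in wild-type NP, and Tlr13 had 14.9, 14.1 and 10.2 in MCJ-deficient and 15.1, 28.5 and 25.4 in wild-type NP. On this measure 8 of the 10 receptors, all but Tlr5 and Tlr9, were lower in every MCJ-deficient NP library, and 6 were when Lyz2 was left out of the sum. Tlr1, whose CPM overlapped between the genotypes, was among them with 142, 58.0 and 107 in MCJ-deficient and 547, 804 and 415 in wild-type NP. The marker counts were 14173, 40500 and 20974 in MCJ-deficient NP and 3255, 2425 and 3351 in wild-type NP. A gene with level CPM is therefore lower in MCJ-deficient NP on this measure. The share of all genes lower or higher on it was not computed in any condition. In PP, Cd14 was higher in every MCJ-deficient library, with 992, 1686 and 547 counts per 1000 against 465, 446 and 325 in wild-type PP, and the other 9 receptors overlapped. In NN the sums rested on few marker counts, and 3 receptors were higher, 1 lower and 6 overlapping. The ratios were not tested.

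**Figure D5:**
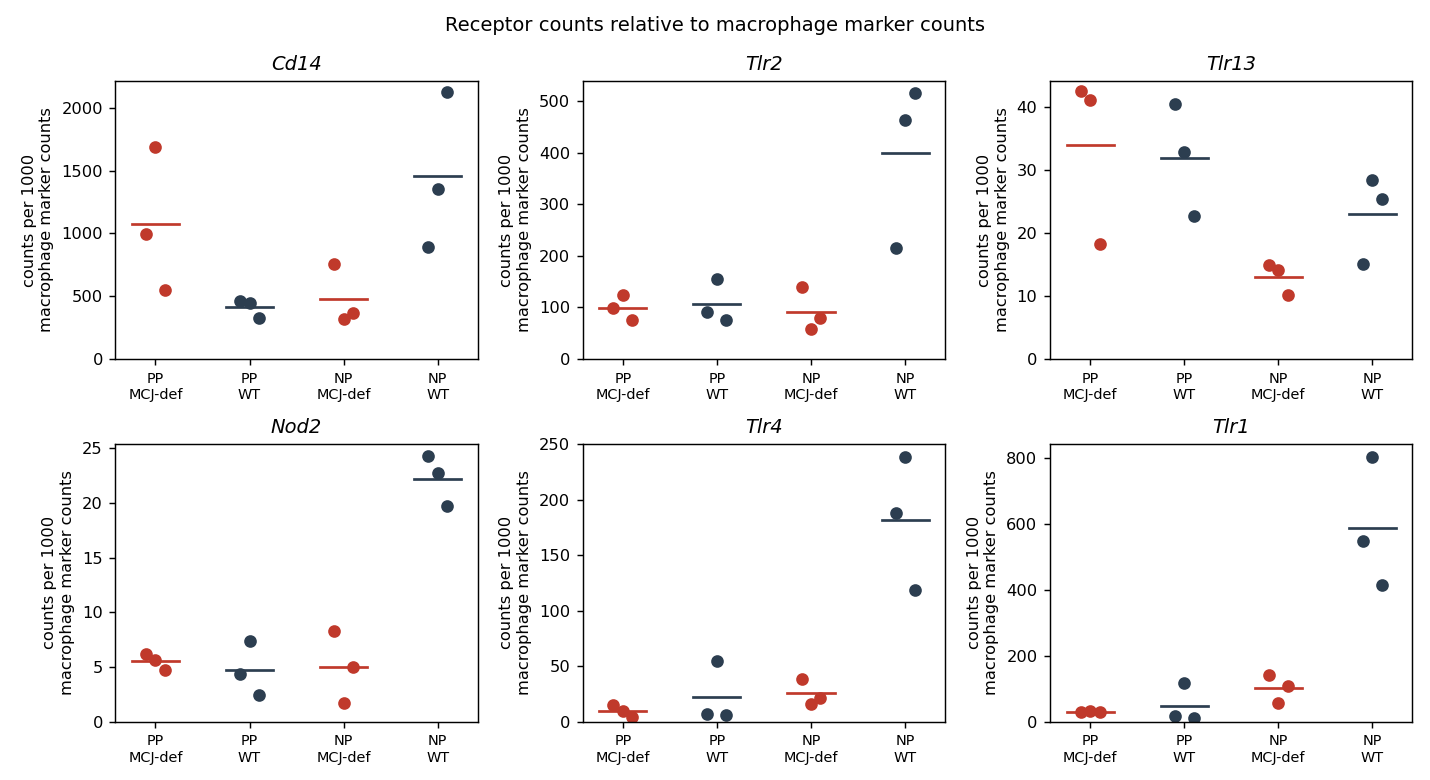
Counts of 6 receptors per 1000 macrophage marker counts in each PP and NP library (points) with group means (lines), MCJ-deficient red and left of wild type. Cd14 is higher in each MCJ-deficient PP library than in wild-type PP, and all 6 are lower in each MCJ-deficient NP library than in wild-type NP. The marker counts themselves are higher in each MCJ-deficient NP library.

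The wider pathway was followed in 7 lists of 62 genes, none of which had a gene called lower in any comparison. Products that the receptors induce, 10 genes, held the most calls of the 7 lists in each comparison that had a call. The lists differ in size, from 5 to 15 genes. For MCJ in NP 4 of 10 were called higher (median log2 fold change 1.65, all genes 0.03), led by Ptgs2, which encodes cyclooxygenase-2, at 2.84 (SE 0.32; adjusted p = 0.00275, edgeR), Il1b, the precursor of interleukin-1 beta, at 2.07 (SE 0.27; adjusted p = 0.00473, edgeR), and the chemokine gene Ccl3 at 2.15 (SE 0.33; adjusted p = 0.011, edgeR). In PP over NP 3 were called in MCJ-deficient mice (Tnf, Il1b and Ccl4) and 9 in wild-type mice. In NP over NN 7 were called in MCJ-deficient and 5 in wild-type mice, and in PP over NN 9 and 10. None was called for MCJ in PP or NN by edgeR. Of all genes, MCJ-deficient then wild type, 1.34% and 3.49% were called higher in PP over NP and 2.04% and 2.25% in NP over NN. In PP over NN the share was 6.52% and 12.8%, and for MCJ in NP it was 0.983%. The calls for MCJ in NP depend on the libraries fitted: over all genes, edgeR called 142 higher in the NP table and 0 in a fit of all 17 libraries.

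Adaptors, the 5 genes Myd88, Tirap, Ticam1, Ticam2 and Sarm1, had no call in any comparison. Sarm1 was tested in none, and Ticam2 was not tested for MCJ in NP, so 3 or 4 were tested each time. At most 12.8% of all genes were called higher in a comparison. Accessory and folding proteins, 9 genes, had 1 call for MCJ in NP, Ly86, which encodes the partner of CD180 (3.83, SE 0.73; adjusted p = 0.0293, edgeR). This list had 2 calls in NP over NN in each genotype (Ly86 and Cd36), and in PP over NN 4 in MCJ-deficient and 6 in wild-type mice, the last including the chaperone Hsp90b1 in wild-type mice at 1.52 (SE 0.26; adjusted p = 0.000653, edgeR). On the NOD side, 8 genes, Slc15a3, a peptide and histidine transporter of lysosomes, was called for MCJ in NP (2.00, SE 0.42; adjusted p = 0.0472, edgeR). It was also called in PP over NP in MCJ-deficient (3.04, SE 0.63; adjusted p = 0.0332, edgeR) and wild-type mice (3.88, SE 0.66; adjusted p = 0.00306, edgeR), and in each genotype against NN.

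Among 5 other Toll-like receptors, Tlr7, the receptor for single-stranded RNA, rose in PP over NP in wild-type mice by 6.17 (SE 1.07; adjusted p = 0.00317, edgeR), as did Tlr6, the other partner of TLR2, by 1.79 (SE 0.49; adjusted p = 0.0448, edgeR). No gene of this list was called in that contrast in MCJ-deficient mice, and the difference between genotypes did not pass. Of 10 brakes on the pathway, 2 were called in PP over NP in MCJ-deficient mice and 3 in wild-type mice. They included Irak3, an inhibitory kinase of the family, at 3.49 (SE 0.75; adjusted p = 0.0344, edgeR) in MCJ-deficient and 3.32 (SE 0.75; adjusted p = 0.0176, edgeR) in wild-type mice, and Tnfaip3, the ubiquitin-editing enzyme A20, at 2.27 (SE 0.53; adjusted p = 0.0441, edgeR) and 2.03 (SE 0.53; adjusted p = 0.0352, edgeR). Among 15 kinases, ligases and factors, Irf5, a transcription factor downstream of MyD88, was called in PP over NP in wild-type mice at 5.04 (SE 1.00; adjusted p = 0.0077, edgeR).

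Across the 17 libraries the gene closest in profile to each receptor was sought among 11376 named genes whose mean normalized count was 50 or more, by the root mean squared difference of centred log2 CPM. The nearest to Cd14 were Lcp1 at 0.41, an actin-bundling protein of leukocytes, Cd44 at 0.56 and Htr7 at 0.60, where Cd14 itself varied by 2.53 on this measure. Tlr2 was nearest to Rnf19b at 0.38, Pim1 at 0.48 and Hilpda at 0.49. For Tlr13 they were Gpr84 at 0.57, a receptor of myeloid cells, Ms4a4a at 0.58 and Plek at 0.59. Nod2 had Slc39a6 at 0.63, Arap3 at 0.64 and Svil at 0.65, and Nod1 had Vcpip1 at 0.55, Map4k2 at 0.61 and Tab3 at 0.62. The nearest gene was Fuca2 at 0.18 for Tlr1, Nipa2 at 0.23 for Tlr3 and Ccar1 at 0.28 for Tlr4, which themselves varied by 0.30, 0.40 and 0.70. Tlr5 was nearest to Zfp119b at 0.58, and Tlr9 had no close gene, with Siglecf at 1.51. All points share the library composition described above.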

How the data were processed

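RNA was measured in 17 libraries. The authors deposited whole-number counts per NCBI gene number in 1 table per condition, without normalization. Per the submitters' processing notes, CASAVA 1.8.2, FastQC, Trim Galore, STAR 2.5.4, DESeq2 and the build mm10 were used; the counting program, annotation and strand setting are not given in the sources used here. RefSeq named 25275 of the gene numbers and GENCODE 18, which left 1886 without a symbol; GRCm38 coordinates are RefSeq's and exon lengths GENCODE's.

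Counts were filtered with filterByExpr, scaled by TMM and tested with the edgeR 4.0.16 quasi-likelihood test in R 4.3.3, with Benjamini-Hochberg adjustment over all genes tested and calls at an adjusted p under 0.05. The MCJ effect was fitted within each condition's table. Treatment effects and differences of the MCJ effect came from 1 fit of the 17 libraries, so TMM scaling there crosses tables. The SE is the log2 fold change over the root of the F statistic. DESeq2 1.42.0 and other settings were alternatives, and the edgeR and DESeq2 steps were tested on simulated data. Log2 fold changes of receptors are printed only where the unadjusted p was under 0.1. Not all of those are printed, and some are given as ratios or bounds. Pathway genes are named where they passed and were among the 3 smallest p of their list in that comparison, and for each receptor the nearest genes in profile are named.

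The labels give 1 mouse number per library, some numbers occurring in several groups; p-values measure the spread between these samples. Folds against 0 counts are bounds against 3 counts, and ratios to 1 to 3 counts carry exact 95% intervals; both cover counting error only. The receptors, lists and tests were chosen with earlier results of these data known. Promoter windows are RefSeq's, and none was used for Cd14 or Tlr4.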

Additional observations from a re-analysis of the deposited data

How the results depend on the processing

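The counts of called receptors were recomputed with RLE size factors, DESeq2, no filter on low counts, nuclear counts only, other sets of libraries in the fit, and each library left out in turn. The MCJ effect in NP called 0 receptors, but 2 with DESeq2 and 2 without the filter, and 0 to 1 with a library left out. NP over NN in MCJ-deficient mice called 2, but 4 with DESeq2, and 1 to 2 with a library left out. In wild-type mice it called 3, 1 in a fit of the groups compared alone, 2 to 4 with a library left out, and 0 with the libraries of under 10 Xist counts, a setting chosen after seeing the data. PP over NP called 3 in MCJ-deficient mice, and 0 to 3 with a library left out. In wild-type mice it called 3, but 5 with DESeq2, and 3 to 4 with a library left out. PP over NN in wild-type mice called 8, but 4 with the libraries of under 10 Xist counts, and 6 to 7 with a library left out, Tlr5 and Tlr9 being lost most often. The difference of the MCJ effect between NP and NN called 0, but 1 with DESeq2. The cause of these changes was not tested. Of the remaining comparisons of counts, 54 under other settings and 71 with a library left out stayed within 1.5 times. No receptor's log2 fold change with an unadjusted p under 0.1 changed sign under any setting run. Over all genes, DESeq2 called 314 higher and 47 lower for MCJ in NP, where edgeR called 142 and 3, and 21 and 291 in NN and 49 and 39 in PP, where edgeR called 0. For the treatment contrasts in MCJ-deficient and then wild-type mice, DESeq2 called 768 and 901 genes higher in NP over NN (edgeR 346 and 381), 671 and 1039 in PP over NP (228 and 591), and 1918 and 2930 in PP over NN (1106 and 2169). For the differences of the MCJ effect it called 103 higher and 38 lower in NP minus NN and 31 and 50 in PP minus NP, where edgeR called 0, with 950 and 886 genes at an unadjusted p under 0.05. A fit of all 17 libraries called 0 higher and 1 lower for MCJ in NP. Unadjusted p was under 0.05 for 1124 genes in NN and 758 in PP by edgeR. RLE scaling moved the median log2 fold change of all genes in PP over NN in MCJ-deficient mice to 0.16, against 0.06 with TMM. The receptor counts per 1000 macrophage marker counts in NP stayed lower in every MCJ-deficient library for 8 receptors without Mertk (added after seeing the data), and for 8 to 9 with a library left out. Depth limits Tlr5, Tlr9, Nod1 and Nod2 most, and Tlr13 in NN. Mouse numbers 1 and 2 of the titles occur in both NN genotypes and in MCJ-deficient NP and NN, so a replicate block by that number was fitted for these comparisons, after seeing the data. It called 0 receptors for MCJ in NN and 2 in NP over NN (292 genes in all), as without the block. The same-numbered libraries' deviations from their group means had correlations of -0.035 to 0.024 across genes. With 2 libraries in MCJ-deficient NN, the deviations of that group mirror each other. The check therefore cannot tell whether same-numbered libraries share more than a number. The other comparisons of 2 groups share at most 1 mouse number, and no block was fitted for the differences of the MCJ effect.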
